A study of Mus musculus with 16 samples.

Results

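Blood neutrophils of WT mice were compared between 12 hours after cecal ligation and puncture (CLP) and the baseline (0h). In CLP the cecum is tied off and pierced, so that gut bacteria reach the peritoneal cavity and the animal becomes septic. The comparison takes the samples labelled WT and blood, either after CLP or with no treatment, which are 4 of the 16 samples of the series and 6 of its 24 count files. The mice were males of 8 to 12 weeks, and the cells were sorted as Ly6G+/CD11b+/CD45.2+ before total RNA was purified, amplified as full-length cDNA and sequenced. Other samples came from mice labelled as lacking integrin αD (αD KO) and from the lung, and they are used here only for comparison. Itgad, which codes for αD, was lower in the libraries labelled WT than in those labelled αD KO (values below). WT is therefore used here as the name the labels give. Whether the genotype labels are exchanged, or whether the targeted allele still leaves a transcript that is counted, was not tested. Neither the strain of the WT mice nor the hour of the day is stated in the sources used here. The baseline mice had no sham operation. Infection, surgery, ketamine and xylazine anesthesia, subcutaneous saline and buprenorphine therefore cannot be told apart in the comparison.

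Neutrophils are short-lived granulocytes that leave the bone marrow with most of their granule proteins already made. In sepsis they meet microbial products and cytokines in the blood, and the marrow releases further cells, among them younger ones. They kill by degranulation, by the oxidative burst of the NADPH oxidase and by sequestering metals, and they are also a source of cytokines. In bulk RNA, fewer cells of a type and less RNA per cell cannot be told apart.

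Each group has 3 count files under 2 samples. Sample 1 holds libraries 1a and 1b, sample 2 holds library 2, and values are given below in that order. Each file was taken as a library (n = 3 per group). Libraries 1a and 1b were not copies of one file (chi-square over its degrees of freedom 196 at 0h and 95.6 at 12h), but this compares amplified reads with counting error alone and does not show that they are separate animals. With the 2 files of sample 1 summed (n = 2 per group) 2756 genes passed the test given below, against 1975 with the files apart. Whether the libraries come from separate animals is not stated, so the p-values measure the spread between libraries, which may be partly technical. Total counts were 5753476 to 29433699 (median 22720096) at 0h and 17976890 to 26047974 (median 19263388) at 12h. Library 1b of 0h was the shallowest, yet it had counts for 38499 genes, against 17132 to 33962 in the other 5 libraries. It also held 1.05% of its counts in unconfirmed transcripts (the TEC class), against 0.130% to 0.310% in the others. In each of the 8 groups of the series, library 1b had the fewest total counts and the most genes with counts. The 10 genes with the most counts took 11.5% to 12.8% of a library at 0h and 23.2% to 28.1% at 12h.

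The neutrophil label was checked against 10 markers fixed for this cell type, all of which had counts in every library. Their summed level was 46940, 37400 and 50060 CPM (read counts scaled to a common library size) at 0h and 185500, 130500 and 164900 CPM at 12h. Of the 10, 6 rose and 1, Csf3r, fell (median 1.95). Markers of T and NK cells summed to 26.8 to 33.2 CPM at 0h and 15.8 to 16.6 CPM at 12h, and the one with the most counts was Cd3d, at 357, 65 and 413 counts at 0h and 179, 230 and 180 counts at 12h. Every other marker of this list had at most 143 counts in a library. Hemoglobin and other erythroid markers ran from 272 CPM in library 1a of 0h to 3911 CPM in library 2 of 0h. CPM are scaled here by the TMM factors of the libraries.

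The change over 12 hours was broad. Of 14625 genes tested, 1975 passed an adjusted p under 0.05 with a log2 fold change over 1 in size, which is 13.5% of all genes. Higher at 12h were 1134 genes (7.75%) and lower 841 (5.75%), with a median size of 1.93 and 2.30 on the log2 scale. Among them 99 rose and 121 fell by more than 16-fold. Without the threshold on fold change 1994 genes passed, and 4212 had an unadjusted p under 0.05. The 3 libraries of 1 time did not overlap those of the other for 1974 of the 1975 genes, the exception being Il1a, and for 37.4% of all genes tested (20.6% higher, 16.9% lower). An exact permutation test of 3 against 3 libraries cannot go below p = 0.1, so single genes are called only by the model across all genes (edgeR's quasi-likelihood test, Benjamini-Hochberg adjustment). A fit that pairs the libraries of the same number across the times (the block) called 2692 genes (18.4%), 1490 higher (10.2%) and 1202 lower (8.22%), of which 1942 were among the 1975. The number of calls depended on single libraries. It was 150 without library 1a of 0h, 46 without library 2 of 0h, 19 without 1a of 12h and 2 without 2 of 12h, but 2804 without 1b of 0h and 1589 without 1b of 12h. Lipg and Prok2 were the 2 genes called in each of these 6 fits, so every other gene given below as risen or fallen lost its call in at least 1 of them. All 1975 calls kept their direction in each fit that tested them.

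The 53 gene lists hold 5 to 52 tested genes each. Risen genes made up 11 of 25 on the lipid and cholesterol list, 10 of 19 on the specific granule list, 7 of 12 on the mitochondrially encoded list and 7 of 33 on that of nuclear oxidative phosphorylation. Fallen genes made up 9 of 28 on the immediate early list, 5 of 13 on the chemokine receptor list and 6 of 12 on the platelet list. The median log2 fold change of all genes tested was -0.15, and list medians are read beside it.

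**Figure D1:**
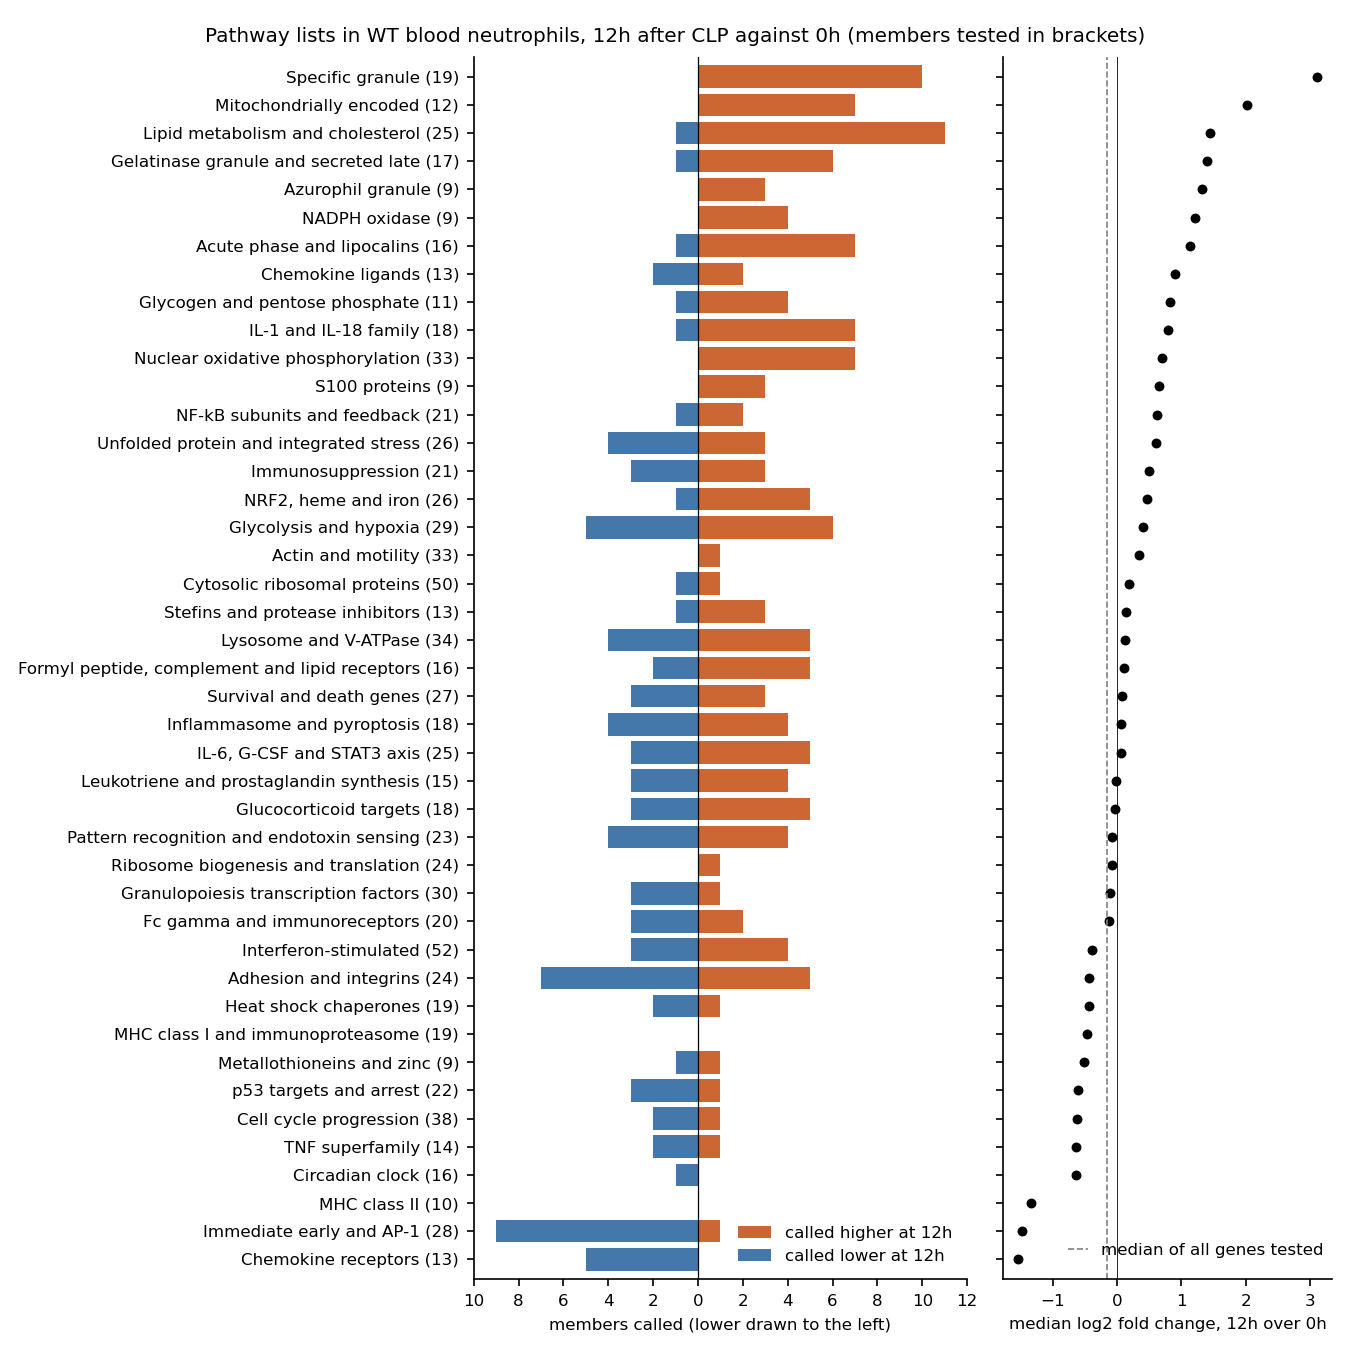
Response of 43 pathway lists in WT blood neutrophils 12 hours after CLP. Bars on the left count members called higher (right of 0) and lower (left of 0), with the number tested in brackets. Points on the right are the median log2 fold change of the list's tested members beside that of all genes (dashed line, -0.15). The specific granule list has the highest median, 3.11, with 10 of 19 members risen.

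Several of the steepest rises were in genes of secreted proteins. Lipg, an endothelial-type lipase that acts on phospholipids of lipoproteins, was measured at 1.05, 2.28 and 0.9201 CPM at 0h and 459, 602 and 799 CPM at 12h. It was the largest rise among the genes named by the rule (log2 fold change 8.85, SE 0.58, adjusted p = 0.00128), and its 12h libraries lay far above every 0h library. Prok2, a chemokine-like peptide also known as Bv8, was at 0.751, 0.798 and 0.4601 CPM at 0h and 200.2, 118 and 304 CPM at 12h (log2 fold change 8.30, SE 0.55, adjusted p = 0.00128). Saa3, a serum amyloid, was at 1.43, 0.798 and 0.5855 CPM at 0h and 282, 27.4 and 231 CPM at 12h, with library 1b of 12h well below the other 2 (log2 fold change 7.54, SE 0.99, adjusted p = 0.00467). Orm1, which codes for an acid glycoprotein of plasma, was at 3.87, 0.684 and 1.63 CPM at 0h and 615, 159 and 376 CPM at 12h (log2 fold change 7.47, SE 0.84, adjusted p = 0.00315). Lbp, the carrier that hands endotoxin to CD14, rose from 5.48, 5.24 and 3.555 CPM to 93.65, 127 and 104 CPM (log2 fold change 4.51, SE 0.32, adjusted p = 0.00128). The list of acute phase proteins and lipocalins had 7 of 16 tested members higher and 1 lower, with a median of 1.13. The member that fell was Fgl2, a fibrinogen-like protein, at 3178, 1416 and 2892 CPM at 0h and 55.5, 89.8 and 183 CPM at 12h, a gene named after its values were seen.

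The genes of the specific granules, which carry lactoferrin, lipocalin and collagenase, rose in large part. Of 19 tested members 10 were higher and none was lower (median 3.11), and the list summed to 30110, 6820 and 19080 CPM at 0h and to 225900, 125000 and 125700 CPM at 12h. Among the 10 are Cybb, Ltb4r1, Itgb2l, Cd177 and Anxa1, which are counted on other lists as well. Lcn2, the iron-siderophore scavenger lipocalin 2, was at 587, 303 and 484.5 CPM at 0h and 20580, 15690 and 17340 CPM at 12h (log2 fold change 5.29, SE 0.51, adjusted p = 0.00205). Olfm4, a marker of a neutrophil subset, was at 16.3, 3.53 and 6.94 CPM at 0h and 443, 406 and 287 CPM at 12h (log2 fold change 5.39, SE 0.63, adjusted p = 0.00345). Mmp8, the neutrophil collagenase, was at 2326, 572 and 1690 CPM at 0h and 14790, 11150 and 13730 CPM at 12h (log2 fold change 3.11, SE 0.60, adjusted p = 0.0165). The groups did not overlap for any of these. Chil3, a chitinase-like protein of immature neutrophils, was at 802, 8.66 and 158.5 CPM at 0h and 39710, 17210 and 19980 CPM at 12h (log2 fold change 6.31, SE 1.5, adjusted p = 0.0318), with a spread of nearly 2 orders of magnitude among the 0h libraries. Ngp, another protein of this granule named after its values were seen, was at 3561, 25.6 and 393 CPM at 0h and 75320, 43560 and 37670 CPM at 12h and missed the threshold (log2 fold change 5.30, SE 1.56, adjusted p = 0.0618), but passed it with the block (adjusted p = 0.0112). Ltf, the lactoferrin gene, and Camp were also named after their values were seen. Both missed the threshold (adjusted p = 0.147 and 0.132) but passed it with the block (adjusted p = 0.035 and 0.00907). Ltf was at 2165, 7.06 and 261 CPM at 0h and 22220, 11340 and 5024 CPM at 12h (log2 fold change 3.99, SE 1.61). Leaving out library 1a of 0h left 3 members of the list called, leaving out 2 of 0h, 1a of 12h or 2 of 12h left 0. With the block 15 were higher and 2 lower.

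Markers of immature neutrophils overlap with this list. They summed to 7175, 92.2 and 947 CPM at 0h and to 143100, 73510 and 64080 CPM at 12h, and 1 of 10 tested members, Chil3, was called (5 with the block), with a median of 1.88. Ltf, Camp, Ngp and Chil3 are also on the specific granule list, and these 4 made up nearly all of that sum except in library 1b of 0h. The other 8 summed to 91.7, 45.6 and 67.3 CPM at 0h and to 101.2, 80.4 and 105.3 CPM at 12h. Among these 8 are 4 azurophil proteins. Elane had at most 5 counts in a library, Ctsg at most 6 and Mpo at most 15. Prtn3, proteinase 3, had 19, 10 and 4 counts at 0h and 78, 73 and 96 counts at 12h, without overlap, and missed the threshold (log2 fold change 2.81, SE 0.78, adjusted p = 0.0524), but passed it with the block (adjusted p = 0.0406). What share of the granule result goes with such cells was not tested.

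Other granule lists moved less evenly. In the azurophil list 3 of 9 tested members rose (5 with the block) and none fell (median 1.33, or 2.43 with libraries 1a and 2 alone), among them Serpinb1a, an elastase inhibitor, at 66.2, 9.115 and 22.04 CPM at 0h and 2106, 1250 and 1092 CPM at 12h (log2 fold change 5.51, SE 0.82, adjusted p = 0.00713), and Ctsc, which activates granule serine proteases (log2 fold change 2.5, adjusted p = 0.0499). In the gelatinase and late secreted list 6 of 17 were higher and 1 lower, or 10 and 2 with the block (median 1.40). Its members include Wfdc21 at 199.6, 116 and 188 CPM at 0h and 3379, 1722 and 3206 CPM at 12h (log2 fold change 4.04, SE 0.48, adjusted p = 0.00348), Mmp25, a membrane-bound metalloproteinase (log2 fold change 3.05, adjusted p = 0.00894), and Retnlg, a resistin-like protein (log2 fold change 2.58, adjusted p = 0.0128). Mmp9, the gelatinase itself, was at 5849, 3601 and 4078 CPM at 0h and 9207, 11290 and 8831 CPM at 12h and was not called (log2 fold change 1.12, SE 0.41, adjusted p = 0.113), although its libraries did not overlap. Vnn3, a vanin, fell from 221, 90.9 and 158 CPM to 2.835, 1.62 and 3.72 CPM (log2 fold change -5.84, SE 0.51, adjusted p = 0.00171).

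The calprotectin genes rose. S100a8 was at 11880, 11220 and 14670 CPM at 0h and 84930, 47460 and 71370 CPM at 12h (log2 fold change 2.43, SE 0.48, adjusted p = 0.0178) and S100a9 at 9791, 13090 and 12740 CPM at 0h and 64560, 45610 and 52680 CPM at 12h (log2 fold change 2.19, SE 0.45, adjusted p = 0.0198). Their product binds zinc, manganese and calcium. With S100a13 they were the 3 of 9 tested S100 genes that rose (median 0.65), and the list summed to 24720 to 30390 CPM at 0h and 96630 to 152400 CPM at 12h. Of 13 stefins and other protease inhibitors 3 rose, or 5 with the block, and 1 fell (median 0.14, or 0.87 with libraries 1a and 2 alone). They were Serpinb1a and the cysteine protease inhibitors Stfa2 (log2 fold change 4.46, adjusted p = 0.00513) and Stfa3 (log2 fold change 5.70, adjusted p = 0.0275), which are near-identical copies whose reads the counting could split, so each is uncertain. Cst3, cystatin C, fell (log2 fold change -1.89, adjusted p = 0.034).

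**Figure D2:**
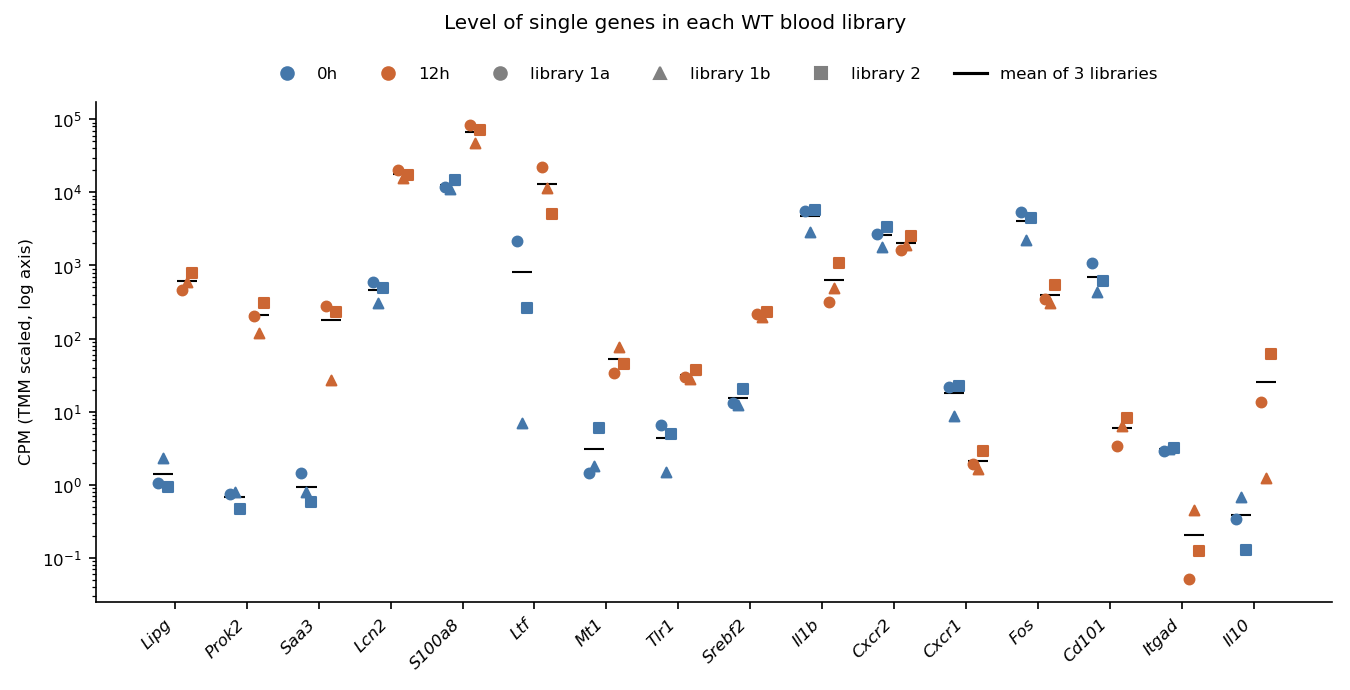
Level of single genes in each library (log axis, TMM-scaled CPM, with symbols for libraries 1a, 1b and 2 and lines for the mean of 3). At 0h Lipg lies between 0.920 and 2.28 CPM and at 12h between 459 and 799 CPM, while the libraries of Cxcr2 overlap between the times, and library 2 of 12h stands apart for Il10.

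Most genes of cholesterol synthesis rose. The list of lipid metabolism had 11 of 25 tested genes higher and 1 lower (median 1.45), and several of the 11 code for enzymes of this route, which runs from acetyl-CoA through mevalonate, farnesyl diphosphate and squalene to cholesterol. The route was therefore followed through 20 enzymes in pathway order, a list written after these values were seen. Of the 20, 14 were higher and none was lower (median 2.35, 15 without overlap), or 1, Acat2, with the block, with log2 fold changes of the called members between 1.65 and 4.46. The summed level of the enzymes was 357, 239 and 271 CPM at 0h and 1041, 725 and 1232 CPM at 12h. The members that rose lie between Hmgcs1 and Hsd17b7 in the pathway. Tm7sf2, which lies between them, was not called, nor were Acat2 before them and Ebp, Sc5d and Dhcr7 after them.

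Hmgcs1 makes HMG-CoA and was at 8.38, 9.46 and 12.8 CPM at 0h and 115, 75.95 and 135 CPM at 12h (log2 fold change 3.41, SE 0.34, adjusted p = 0.0021). Fdps and Fdft1 make farnesyl diphosphate and squalene. Fdps was at 3.34, 2.735 and 2.802 CPM at 0h and 81.95, 47.5 and 67.25 CPM at 12h (log2 fold change 4.46, SE 0.32, adjusted p = 0.00128). Fdft1 was at 3.38, 3.08 and 3.85 CPM at 0h and 72.8, 46.6 and 98.65 CPM at 12h (log2 fold change 4.39, SE 0.37, adjusted p = 0.00161). Each 12h library was above each 0h library for these 3 genes. Hsd17b7, which acts late in the removal of methyl groups, was at 1.803, 1.48 and 1.297 CPM at 0h and 32.1, 23.3 and 30.2 CPM at 12h (log2 fold change 4.21, SE 0.32, adjusted p = 0.00128). Acat2, which makes acetoacetyl-CoA, had the opposite sign at 18.7, 6.72 and 14.05 CPM at 0h and 5.37, 2.295 and 4.695 CPM at 12h and missed the threshold (log2 fold change -1.68, SE 0.51, adjusted p = 0.0668), but was called lower with the block (adjusted p = 0.0198).

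Genes of sterol uptake and control gave fewer calls. Of 11 tested, 4 were higher and 1 was lower (median 0.71). Srebf2, the transcription factor that drives this pathway, was at 13.1, 12.4 and 20.2 CPM at 0h and 216.5, 199 and 234 CPM at 12h (log2 fold change 3.82, SE 0.33, adjusted p = 0.00161). Both groups of libraries were tight and far apart. Stard4 (log2 fold change 3.70, adjusted p = 0.0147) and Insig1 (log2 fold change 2.18, adjusted p = 0.0457), a carrier of cholesterol and the anchor that holds the SREBP complex in the endoplasmic reticulum, also rose. Mylip, a ubiquitin ligase induced by sterols, fell from 73.3, 49.2 and 76.5 CPM to 7.54, 9.91 and 8.66 CPM (log2 fold change -2.93, SE 0.29, adjusted p = 0.0021), and Abcg1, a cholesterol exporter named after its values were seen, fell from 50.2, 61.3 and 52.03 CPM to 3.34, 4.365 and 6.28 CPM (log2 fold change -3.55, SE 0.32, adjusted p = 0.00181). In blood labelled αD KO the median of the 20 enzymes was 1.36 and in WT lung 1.61. Leaving out library 2 of 12h left none of the 14 enzymes called, 2 of 0h or 1a of 12h left 2, and 1a of 0h left 5.

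**Figure D3:**
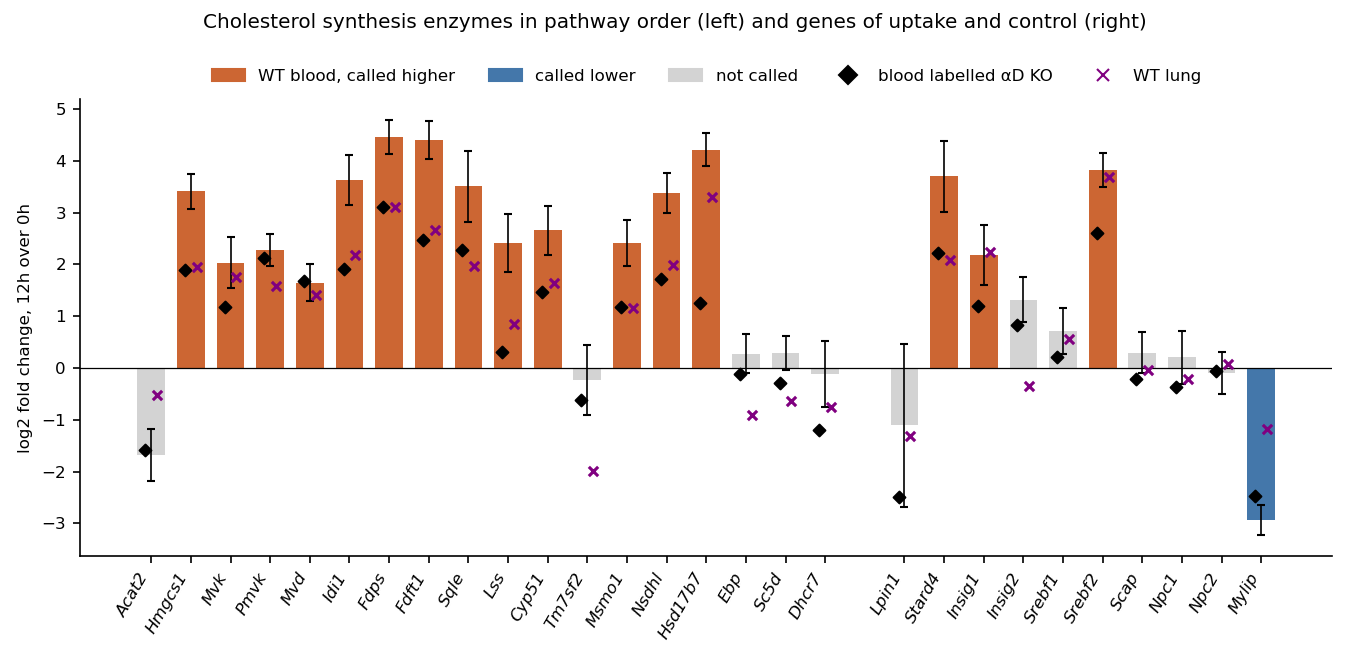
Log2 fold changes (12h over 0h, bars, with standard errors) of cholesterol synthesis enzymes in pathway order and of genes of uptake and control, with the values in blood labelled αD KO (diamonds) and WT lung (crosses). The enzymes drawn from Hmgcs1 to Hsd17b7, without Tm7sf2, are higher in WT blood, and Mylip is lower.

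For the sterol genes that rose, the 250 bases upstream of their start sites were read from RefSeq (GRCm38.p6). Of these 18 genes, 12 had an entry, with 13 start sites. The letters TCACNCCAC, a form of the sterol regulatory element, were found on either strand in 1 of the 13, that of Hmgcs1, and in 1.05% of 32851 promoters. The letters CCAAT, the core that the factor NF-Y binds, were found on either strand (ATTGG on the other) in 12 of the 13 and in 33.8% of all. These are matches of letters only, and CCAAT is a common promoter element. The promoters of 4 of these genes are shown 5′ to 3′ on the strand of the gene, with the matches in capitals: Hmgcs1 (chr13:119690101-119690350, plus strand, with TCACCCCAC 137 bases upstream of the start), Hsd17b7 (chr1:169969206-169969455, minus strand), Idi1 (chr13:8885356-8885605, plus strand) and Srebf2 (chr15:82147019-82147268, plus strand).
Hmgcs1: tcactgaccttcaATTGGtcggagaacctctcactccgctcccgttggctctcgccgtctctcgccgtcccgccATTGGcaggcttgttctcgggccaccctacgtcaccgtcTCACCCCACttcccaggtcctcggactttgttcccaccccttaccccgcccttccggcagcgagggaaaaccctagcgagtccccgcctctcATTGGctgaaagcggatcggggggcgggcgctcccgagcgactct
Hsd17b7: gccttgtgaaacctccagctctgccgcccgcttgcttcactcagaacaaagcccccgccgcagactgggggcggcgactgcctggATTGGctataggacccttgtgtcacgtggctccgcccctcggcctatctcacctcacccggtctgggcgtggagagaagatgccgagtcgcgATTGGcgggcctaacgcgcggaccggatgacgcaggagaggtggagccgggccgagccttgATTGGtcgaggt
Idi1: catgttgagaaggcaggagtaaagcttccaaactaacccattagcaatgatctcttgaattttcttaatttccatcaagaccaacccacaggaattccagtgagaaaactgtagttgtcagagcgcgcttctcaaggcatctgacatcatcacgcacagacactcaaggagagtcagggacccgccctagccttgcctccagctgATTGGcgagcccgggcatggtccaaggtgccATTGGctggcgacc
Srebf2: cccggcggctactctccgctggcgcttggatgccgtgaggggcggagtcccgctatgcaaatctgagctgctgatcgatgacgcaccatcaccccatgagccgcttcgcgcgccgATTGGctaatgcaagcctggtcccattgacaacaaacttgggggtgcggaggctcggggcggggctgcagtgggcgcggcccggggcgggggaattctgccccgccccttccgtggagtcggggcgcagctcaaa

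Cytokine genes moved in both directions. The IL-1 and IL-18 family had 7 of 18 tested members higher and 1 lower (median 0.79). Il1b, the main pyrogenic cytokine of myeloid cells, fell from 5615, 2861 and 5776 CPM to 315, 497 and 1079 CPM (log2 fold change -2.91, SE 0.59, adjusted p = 0.0195). Il1r2, the decoy receptor that binds IL-1 without signalling, rose from 1005, 279 and 762 CPM to 4429, 4200 and 4352 CPM (log2 fold change 2.67, SE 0.53, adjusted p = 0.0187). The libraries of these 2 genes did not overlap, and the 12h libraries of Il1r2 were close together. Sigirr, an inhibitor of the IL-1 receptor, rose (log2 fold change 3.25, adjusted p = 0.0194). Il1a was at 0.376, 1.25 and 0.167 CPM at 0h and 20.55, 1.12 and 40.3 CPM at 12h, called without the block (log2 fold change 5.29, SE 1.31, adjusted p = 0.0354) and not with it (adjusted p = 0.0625), and its groups overlapped.

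Growth factor signalling, TNF and NF-kB genes gave calls in both directions. The share called was 32% on the IL-6 list, 21.4% on the TNF list and 14.3% on the NF-kB list, against 13.5% of all genes. On the axis of IL-6, G-CSF and STAT3, 5 of 25 members rose and 3 fell (median 0.06). Csf3r, the G-CSF receptor, fell from 11300, 5495 and 11280 CPM to 1264, 1136 and 2282 CPM (log2 fold change -2.58, SE 0.51, adjusted p = 0.0182). Cish, a STAT5-induced inhibitor of cytokine signalling, rose from 1.615, 0.9115 and 1.76 CPM to 67.2, 37.9 and 48.9 CPM (log2 fold change 5.11, SE 0.39, adjusted p = 0.00128), and Csf2rb2, a receptor chain for IL-3, rose as well (log2 fold change 3.33, adjusted p = 0.00373). Socs3, of the same family as Cish, was at 486, 275 and 729 CPM at 0h and 244.5, 244 and 387 CPM at 12h and was not called (log2 fold change -0.77, adjusted p = 0.29). Of 14 tested genes of the TNF superfamily 1 rose, or 2 with the block, and 2 fell (median -0.64). Tnf was at 29.45, 8.204 and 22.8 CPM at 0h and 139.9, 85.1 and 139.9 CPM at 12h (log2 fold change 2.58, SE 0.49, adjusted p = 0.0158), while the ligands Tnfsf14 (log2 fold change -2.27, adjusted p = 0.00838) and Tnfsf13b (log2 fold change -1.87, adjusted p = 0.0257) fell. In the NF-kB list 2 of 21 members rose, or 6 with the block, and 1 fell (median 0.62). Ikbke, a kinase of the interferon and NF-kB routes, was at 4.21, 2.39 and 3.97 CPM at 0h and 536, 59.9 and 754.5 CPM at 12h (log2 fold change 6.97, SE 0.98, adjusted p = 0.00589), with library 1b of 12h about an order of magnitude below the other 2. Tnip1, an A20-binding inhibitor, also rose (log2 fold change 1.91, adjusted p = 0.0333), and Nfkbid fell (log2 fold change -1.68, adjusted p = 0.0383).

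Receptors that sense bacteria were split. Of 23 tested pattern recognition genes 4 rose and 4 fell (median -0.07). Cd14, the endotoxin co-receptor, was at 265, 60.05 and 171 CPM at 0h and 2479, 1309 and 1419 CPM at 12h (log2 fold change 3.39, SE 0.62, adjusted p = 0.014), and Tlr4 itself was at 143, 81.5 and 113 CPM at 0h and 78.9, 78.4 and 144 CPM at 12h and was not called (log2 fold change -0.17, adjusted p = 0.788). Clec7a (dectin-1), which binds fungal glucans, fell from 1661, 887.5 and 1888 CPM to 12.3, 18.2 and 30.6 CPM (log2 fold change -6.18, SE 0.58, adjusted p = 0.00188), and Tlr5, the flagellin receptor, fell from 30.4, 13.3 and 18.7 CPM to 0.253, 1.62 and 2.32 CPM (log2 fold change -3.90, SE 0.74, adjusted p = 0.0162). Several chemoattractant receptors rose. Of 16 tested receptors for formyl peptides, complement and lipids 5 were higher and 2 lower (median 0.10, or 0.88 with libraries 1a and 2 alone), with Fpr1 at 579, 221.5 and 504 CPM at 0h and 3296, 1264 and 2899 CPM at 12h (log2 fold change 2.52, SE 0.55, adjusted p = 0.0245), Fpr2 higher (log2 fold change 3.18, adjusted p = 0.00467) and Ltb4r1, the leukotriene B4 receptor, higher (log2 fold change 2.78, adjusted p = 0.0112). Of the complement receptors on this list, C5ar1 was not called (log2 fold change 0.16, adjusted p = 0.872). C5ar2 fell (log2 fold change -2.05, adjusted p = 0.00917), and both were named after their values were seen. Among 20 Fcγ and related immunoreceptors 2 rose (4 with the block) and 3 fell (median -0.12). Cd47, the "do not eat me" ligand, rose (log2 fold change 2.25, adjusted p = 0.0162), as did the inhibitory Fcgr2b (log2 fold change 2.10, adjusted p = 0.0279), and Cd300ld fell from 2011, 868.5 and 1704 CPM to 174, 213.5 and 272 CPM (log2 fold change -2.80, SE 0.45, adjusted p = 0.00881).

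Several chemokine receptors fell. None of 13 tested was called higher, and 5 were called lower (median -1.54). Cxcr4, the receptor that retains neutrophils in the marrow, was at 114, 87.85 and 73.15 CPM at 0h and 8.81, 20.4 and 17.6 CPM at 12h (log2 fold change -2.55, SE 0.38, adjusted p = 0.00705). Cxcr1 was at 21.9, 8.66 and 22.5 CPM at 0h and 1.92, 1.62 and 2.87 CPM at 12h (log2 fold change -3.05, SE 0.49, adjusted p = 0.00881) and Cxcr3 at 28.25, 6.84 and 19.5 CPM at 0h and 0.354, 0 and 0.122 CPM at 12h (log2 fold change -6.75, SE 0.99, adjusted p = 0.00658). No 12h library of these 3 genes reached a 0h library. Cxcr2, the main receptor for neutrophil chemokines, was at 2722, 1764 and 3383 CPM at 0h and 1632, 1913 and 2539 CPM at 12h, with overlapping libraries and no call (log2 fold change -0.37, SE 0.41, adjusted p = 0.584). Ccr2 and Ccr3, which also mark monocytes and eosinophils, were lower too (log2 fold change -3.08, adjusted p = 0.0109 and log2 fold change -2.97, adjusted p = 0.0378). Leaving out library 1a of 0h, 2 of 0h, 1a of 12h or 2 of 12h left none of the 5 called. Of 13 chemokine ligands 2 rose and 2 fell, or 3 and 4 with the block (median 0.91). Among those that fell is a gene that is also on the platelet list. Cxcl3 was at 3.08, 2.05 and 6.315 CPM at 0h and 42.7, 40.1 and 224 CPM at 12h (log2 fold change 4.71, SE 0.84, adjusted p = 0.0132), with most of it in library 2 of 12h, and Cxcl1 also rose (log2 fold change 3.78, adjusted p = 0.0316). Ccl6 fell from 5279, 3626 and 3510 CPM to 139, 271 and 538 CPM (log2 fold change -3.71, SE 0.60, adjusted p = 0.00894).

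Integrin genes, the subject of the study, differed among themselves. The β2 integrins pair a common β chain (Itgb2) with αL (Itgal), αM (Itgam), αX (Itgax) or αD (Itgad), and they let leukocytes adhere and take up opsonized particles. Itgam was at 282, 227 and 394 CPM at 0h and 1125, 715 and 1334 CPM at 12h (log2 fold change 1.81, SE 0.40, adjusted p = 0.0249). Itgal was at 1175, 608 and 1068 CPM at 0h and 261, 254.5 and 279 CPM at 12h (log2 fold change -1.84, SE 0.37, adjusted p = 0.0186). Itgax was at 61.8, 53.7 and 85.6 CPM at 0h and 3.34, 4.98 and 2.44 CPM at 12h (log2 fold change -4.22, SE 0.38, adjusted p = 0.00178). So αM transcripts rose while αL and αX transcripts fell, each without overlap between the times. Itgad was the lowest of them in counts, with 180 in all at 0h and 11 at 12h, at 2.93, 3.08 and 3.14 CPM at 0h and 0.0506, 0.448 and 0.122 CPM at 12h (log2 fold change -3.84, SE 0.93, adjusted p = 0.0336). Itgb2 was at 2330, 955 and 1799 CPM at 0h and 2892, 2430 and 2471 CPM at 12h and was not called (log2 fold change 0.62, SE 0.43, adjusted p = 0.388). Itgb2l, a β2-like chain, rose from 85.4, 6.95 and 20.03 CPM to 1766, 1218 and 1035 CPM (log2 fold change 5.16, SE 0.95, adjusted p = 0.0144), as did Cd177, a surface protein of neutrophil subsets, at 726, 95.5 and 287 CPM at 0h and 11810, 6620 and 6682 CPM at 12h (log2 fold change 4.50, SE 0.81, adjusted p = 0.0135).

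In the whole adhesion list 5 of 24 members were higher and 7 were lower (median -0.43). Itga2b, among the lower, and Selp, among the higher, are also on the platelet list. Jaml, a junctional adhesion molecule of leukocytes, fell from 1013, 479 and 931 CPM to 3.14, 7.95 and 26.4 CPM (log2 fold change -6.02, SE 0.88, adjusted p = 0.00658). Of 33 actin and motility genes 1 rose, or 4 with the block, and none fell (median 0.34). It was Capg, an actin-capping protein (log2 fold change 2.498, adjusted p = 0.0283).

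Several genes of killing by oxidants rose. Of 9 tested genes of the NADPH oxidase list, which includes Nos2, 4 were higher and none was lower (median 1.22). Nos2, the inducible nitric oxide synthase, was at 0.413, 3.53 and 0.711 CPM at 0h and 199, 89.4 and 169.6 CPM at 12h (log2 fold change 6.82, SE 0.87, adjusted p = 0.0042), and its groups were far apart. Cybb, the catalytic gp91phox chain, was at 256, 101 and 257 CPM at 0h and 2987, 945 and 875 CPM at 12h (log2 fold change 2.97, SE 0.65, adjusted p = 0.0243), with library 1a of 12h about 3 times the others. The cytosolic subunits Ncf1 (log2 fold change 2.04, adjusted p = 0.0165) and Ncf4 (log2 fold change 1.91, adjusted p = 0.0321) rose as well. Of 26 genes of NRF2, heme and iron 5 rose and 1 fell (median 0.46). Sod2, the mitochondrial superoxide dismutase, was at 36.1, 14.7 and 31.5 CPM at 0h and 791, 73.99 and 430.1 CPM at 12h (log2 fold change 3.97, SE 0.84, adjusted p = 0.022), with library 1b of 12h the lowest of its group, and Nqo1 was at 2.404, 2.165 and 1.34 CPM at 0h and 27.03, 11.9 and 27.9 CPM at 12h (log2 fold change 3.50, SE 0.46, adjusted p = 0.00467). Slc40a1, the iron exporter ferroportin, fell from 2892, 1139 and 1789 CPM to 259, 244 and 425 CPM (log2 fold change -2.65, SE 0.48, adjusted p = 0.0141). Among 9 metallothionein and zinc genes 1 rose and 1 fell (median -0.51). Mt1 was at 1.43, 1.82 and 5.897 CPM at 0h and 33.2, 77.2 and 45.4 CPM at 12h (log2 fold change 4.06, SE 0.63, adjusted p = 0.00793), while its neighbour Mt2 was at 0, 0 and 0.167 CPM at 0h and 1.47, 0.8395 and 1.097 CPM at 12h, with only 4 counts at 0h, and was not called (adjusted p = 0.0846). Slc39a4, a zinc importer, fell (log2 fold change -3.00, adjusted p = 0.0305).

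Genes of energy metabolism moved in both directions. In the list of glycolysis and hypoxia 6 of 29 members rose and 5 fell, or 10 and 4 with the block (median 0.40). The risen members were Hif1a and 5 genes of glycolytic enzymes, Hk1, Gpi1, Gapdh, Pgk1 and Pgam1, with log2 fold changes from 1.21 (Hk1) to 1.95 (Gpi1), all named after their values were seen. Those that fell include Ndrg1, a hypoxia-induced gene, at 174, 104 and 230.2 CPM at 0h and 22.6, 16.3 and 20.97 CPM at 12h (log2 fold change -3.08, SE 0.37, adjusted p = 0.00373), Bnip3, a mitophagy receptor (log2 fold change -2.41, adjusted p = 0.034), and Egln3, an oxygen sensor (log2 fold change -2.19, adjusted p = 0.0446). Of 11 genes of glycogen and the pentose phosphate route 4 rose and 1 fell (median 0.82). G6pdx, whose product supplies NADPH, was at 568, 187 and 413 CPM at 0h and 3212, 2280 and 2541 CPM at 12h (log2 fold change 2.78, SE 0.50, adjusted p = 0.0133), and Gys1, glycogen synthase, also rose (log2 fold change 2.33, adjusted p = 0.0073). Taldo1 fell from 3381, 1473 and 2260 CPM to 676, 713 and 886 CPM (log2 fold change -1.65, SE 0.42, adjusted p = 0.0407). Of 15 tested genes of leukotriene and prostaglandin synthesis 4 rose and 3 fell (median -0.02). Ptgs2 (COX-2) fell from 1236, 236 and 1037 CPM to 8.96, 16.45 and 34.6 CPM (log2 fold change -5.39, SE 0.83, adjusted p = 0.00769), and Cyp4f18, which inactivates leukotriene B4, also fell (log2 fold change -3.17, adjusted p = 0.0163). Ptges, the prostaglandin E synthase, rose (log2 fold change 2.88, adjusted p = 0.00747).

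Transcripts of mitochondrially encoded proteins were among those that rose. Of 12 tested, 7 were higher and none was lower (median 2.03), while none of 3 tested mitochondrial tRNA genes was called. The 12 summed to 316, 513 and 383 CPM at 0h and 2038, 1122 and 1640 CPM at 12h. mt-Co1, a subunit of cytochrome oxidase, was at 202, 134 and 188 CPM at 0h and 1102, 444 and 830.5 CPM at 12h (log2 fold change 2.18, SE 0.43, adjusted p = 0.0178). mt-Cytb was at 53.1, 90.4 and 88.4 CPM at 0h and 415, 257 and 349.7 CPM at 12h (log2 fold change 2.14, SE 0.36, adjusted p = 0.0105). The median of the list was 0.42 in blood labelled αD KO and -0.08 in WT lung. All counts on mitochondrial genes made up 0.0288% to 0.0818% of a library at 0h and 0.112% to 0.155% at 12h, so the list rests on a small part of each library. Leaving out 1a or 2 of 0h, or 1a or 2 of 12h, left none called. Nuclear genes of oxidative phosphorylation had 7 of 33 tested members higher, or 12 with the block, and none lower (median 0.70). Uqcrb, a subunit of complex III, was at 11.7, 6.15 and 12.7 CPM at 0h and 121, 73.4 and 92.98 CPM at 12h (log2 fold change 3.22, SE 0.37, adjusted p = 0.00333), and Ndufa5, of complex I, was at 1.84, 0.798 and 1.63 CPM at 0h and 20.5, 14.9 and 15.1 CPM at 12h (log2 fold change 3.52, SE 0.43, adjusted p = 0.00378).

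Immediate early genes, which are induced within minutes by many stimuli, fell in part. Of 28 tested, 9 were lower and 1 was higher (2 with the block), with a median of -1.48, and 15 lay lower without overlap. The list summed to 39920, 15180 and 32580 CPM at 0h and 7632, 7586 and 8260 CPM at 12h. Fos was at 5341, 2199 and 4526 CPM at 0h and 349.9, 309 and 535.5 CPM at 12h (log2 fold change -3.34, SE 0.50, adjusted p = 0.00737). Junb was at 5241, 2257 and 4717 CPM at 0h and 911, 714 and 878 CPM at 12h (log2 fold change -2.29, SE 0.45, adjusted p = 0.0178), and Fosb at 37.3, 12.1 and 33.1 CPM at 0h and 0.456, 0.7835 and 0.6097 CPM at 12h (log2 fold change -5.47, SE 0.55, adjusted p = 0.0021). The 0h libraries were the variable ones, and 1b was the lowest of them for all 3 genes. Dusp6, a phosphatase of ERK (log2 fold change -2.86, adjusted p = 0.00474), and Atf3 (log2 fold change -4.76, adjusted p = 0.0204) fell, and Ier3 was the member that rose, a gene named after its values were seen (log2 fold change 1.26, adjusted p = 0.0284). The median of the list was -0.51 in blood labelled αD KO and 0.52 in WT lung. The count was 19 with libraries 1a and 2 alone, 15 without 1b of 0h, 1 without 1a of 0h and 0 without 2 of 0h, 1a of 12h or 2 of 12h.

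Other stress genes moved both ways. On the list of the unfolded protein and integrated stress responses 3 of 26 rose, or 9 with the block, and 4 fell (median 0.61). Chac1, a glutathione-degrading target of ATF4, fell from 92.9, 31.8 and 72.9 CPM to 2.18, 2.46 and 1.77 CPM (log2 fold change -4.94, SE 0.47, adjusted p = 0.00188), and Ppp1r15a (GADD34) fell (log2 fold change -3.19, adjusted p = 0.0222). Manf, a chaperone of the endoplasmic reticulum, rose (log2 fold change 2.63, adjusted p = 0.0169). Among 18 glucocorticoid targets 5 rose and 3 fell (median -0.03), and with libraries 1a and 2 alone 6 rose and 6 fell (median 1.103). The median was 1.05 with the block and 1.60 without library 1b of 0h. Klf9 was at 3.42, 3.19 and 3.22 CPM at 0h and 28.75, 31.7 and 15.4 CPM at 12h (log2 fold change 2.94, SE 0.36, adjusted p = 0.00373) and Anxa1, annexin A1, at 2524, 723.5 and 1593 CPM at 0h and 13630, 9123 and 9831 CPM at 12h (log2 fold change 2.75, SE 0.56, adjusted p = 0.0197), while Zbtb16 fell (log2 fold change -3.61, adjusted p = 0.0198). Of 16 clock genes 1 fell, Ciart (log2 fold change -3.75, adjusted p = 0.0249), and none rose, or 1 with the block (median -0.64).

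Interferon-stimulated genes gave calls in both directions. Of 52 tested, 4 were higher and 3 were lower (median -0.39), or 6 and 11 with the block. The share called, 13.5%, was that of all genes (13.5%). Ifitm6 was at 90.1, 55.95 and 119 CPM at 0h and 5960, 4549 and 5094 CPM at 12h (log2 fold change 5.88, SE 0.51, adjusted p = 0.00166), and Ifitm1 rose too (log2 fold change 1.99, adjusted p = 0.0343). Both code for small membrane proteins that restrict viral entry. Ifit3 was at 287, 42.3 and 72.4 CPM at 0h and 12.9, 1.06 and 15.6 CPM at 12h and was not called (log2 fold change -3.77, SE 1.05, adjusted p = 0.0526), but it was with the block (adjusted p = 0.00519), and its near-identical neighbour Ifit3b fell (log2 fold change -3.75, adjusted p = 0.0414), so reads may be split between them. Isg15 was at 80.2, 37.3 and 41.9 CPM at 0h and 63.9, 4.98 and 57.7 CPM at 12h, with overlapping libraries (log2 fold change -0.33, adjusted p = 0.803). Of 10 MHC class II genes none was called (median -1.34; 1 lower with the block), and Cd74 was at 201.5, 28.5 and 272.5 CPM at 0h and 46.3, 31.8 and 149 CPM at 12h (log2 fold change -1.15, adjusted p = 0.411). Nor was any of 19 genes of MHC class I and the immunoproteasome (median -0.46), or 1 higher and 1 lower with the block. B2m was at 1841, 1148 and 1762 CPM at 0h and 1294, 562 and 1435 CPM at 12h (log2 fold change -0.53, adjusted p = 0.486).

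Genes of cell fate gave calls in both directions. Of 27 survival and death genes 3 rose (5 with the block) and 3 fell (median 0.07, or 0.41 with libraries 1a and 2 alone). Those that fell were the BH3-only genes Pmaip1 at 243, 155 and 204 CPM at 0h and 23.1, 27.4 and 52.2 CPM at 12h (log2 fold change -2.55, SE 0.40, adjusted p = 0.0083), Bid (log2 fold change -1.83, adjusted p = 0.0259) and Bbc3 (log2 fold change -1.68, adjusted p = 0.0136), which promote apoptosis. Cflar, an inhibitor of caspase 8, rose (log2 fold change 1.75, adjusted p = 0.0319). In the inflammasome list 4 of 18 rose and 4 fell (median 0.06). Pycard, the ASC adaptor, was at 19.6, 11.5 and 12.05 CPM at 0h and 94.1, 63.75 and 182 CPM at 12h (log2 fold change 2.97, SE 0.46, adjusted p = 0.00793), and the sensors Nlrp3 at 242, 102 and 182 CPM at 0h and 12.25, 17.5 and 48.2 CPM at 12h (log2 fold change -2.76, SE 0.59, adjusted p = 0.0228), Aim2 (log2 fold change -3.12, adjusted p = 0.00513) and Nlrp1b (log2 fold change -4.47, adjusted p = 0.0321) fell. Among 21 genes linked to immunosuppression 3 rose and 3 fell (median 0.49). Cd101, a surface marker of mature neutrophils, fell from 1065, 431 and 615 CPM to 3.34, 6.44 and 8.11 CPM (log2 fold change -6.88, SE 0.60, adjusted p = 0.00171), with every 12h library far below every 0h library.

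Genes outside these lists were among the largest changes too. Cd38, an NAD-consuming ectoenzyme, rose from 0.5635, 5.58 and 4.56 CPM to 839, 321 and 704 CPM (log2 fold change 7.48, SE 0.95, adjusted p = 0.0042). Prnp, the prion protein gene, was at 0.113, 0.342 and 3.93 CPM at 0h and 287, 188 and 208 CPM at 12h (log2 fold change 7.19, SE 1.16, adjusted p = 0.00916), and Pnpla1 (log2 fold change 7.19, adjusted p = 0.00378), Ggt1 (log2 fold change 6.99, adjusted p = 0.00128) and Gpr27 (log2 fold change 6.53, adjusted p = 0.00386) rose by similar sizes. Ggt1 starts the breakdown of extracellular glutathione. Prr5l, a partner of the mTORC2 complex, fell from 491.5, 133 and 329 CPM to 0.607, 2.798 and 4.45 CPM (log2 fold change -6.93, SE 0.88, adjusted p = 0.00414). Other falls of this size were Gad1-ps (log2 fold change -6.06, adjusted p = 0.00149), Foxq1 (log2 fold change -6.04, adjusted p = 0.0215) and Amz1 (log2 fold change -5.92, adjusted p = 0.00188).

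Several markers of other cells fell. Platelet and megakaryocyte genes had 6 of 12 tested members lower and 1 higher (median -3.08), and 11 were lower without overlap. They summed to 210, 92.4 and 139 CPM at 0h and 59.0, 41.2 and 42.8 CPM at 12h. Without library 1b of 12h 1 of the 6 stayed called. The calls of Itga2b and of Selp each held in only 1 of the 6 fits that left out a library. Itga2b, the platelet αIIb integrin, was at 57.9, 12.65 and 27.6 CPM at 0h and 6.28, 2.18 and 1.65 CPM at 12h (log2 fold change -3.28, SE 0.71, adjusted p = 0.0236), and Selp, P-selectin, was the member that rose, a gene named after its values were seen (log2 fold change 1.22, adjusted p = 0.0343). Markers of dendritic cells had 4 of 10 lower (median -2.96) and summed to 105, 105 and 134 CPM and then to 25.3, 16.5 and 16.6 CPM. One of them, Itgax, is also a β2 integrin. Markers of eosinophils, basophils and mast cells had 2 of 5 lower, or 4 with the block (median -3.21), and summed to 56.9 to 70.6 CPM and then to 5.26 to 8.45 CPM. Siglecf, which defines eosinophils, was at 66.15, 32.4 and 61.4 CPM at 0h and 4.76, 6.1 and 6.46 CPM at 12h (log2 fold change -3.21, SE 0.35, adjusted p = 0.00295), while Prg2 and Epx, their granule proteins, had at most 1 count in any library.

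Few lymphocyte markers were called. Of 13 B cell and plasma cell markers 1 was lower, or 2 with the block: Ighm, the heavy chain of IgM, at 1228, 304 and 631 CPM at 0h and 30.2, 34.2 and 142 CPM at 12h (log2 fold change -3.39, SE 0.79, adjusted p = 0.0303). The list had a median of -0.62 and summed to 359 to 1272 CPM at 0h and 49.6 to 259 CPM at 12h. None of 9 tested T and NK cell markers was called (median -2.47; 1 lower with the block, Cd3g, adjusted p = 0.045). None of the 9 had a positive change, however, and 5 lay lower without overlap, against 16.9% of all genes. DESeq2 called 4 of them lower, against 10.7% of all genes. Of 13 monocyte and macrophage markers 1 rose and 2 fell (median -0.39). Csf1r was at 852, 383.5 and 829 CPM at 0h and 124, 92.6 and 189 CPM at 12h (log2 fold change -2.35, SE 0.46, adjusted p = 0.0173) and Ly6c2 at 140.3, 62.7 and 109.5 CPM at 0h and 727, 489.9 and 604 CPM at 12h (log2 fold change 2.54, SE 0.40, adjusted p = 0.00881). The erythroid list gave no call in 10 genes (median -0.89), or 2 lower with the block. Of 5 endothelial and epithelial markers 1, Sftpc, was called, and it was lower (median -1.87). The part of these cells in the pathway results was not tested.

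**Figure D4:**
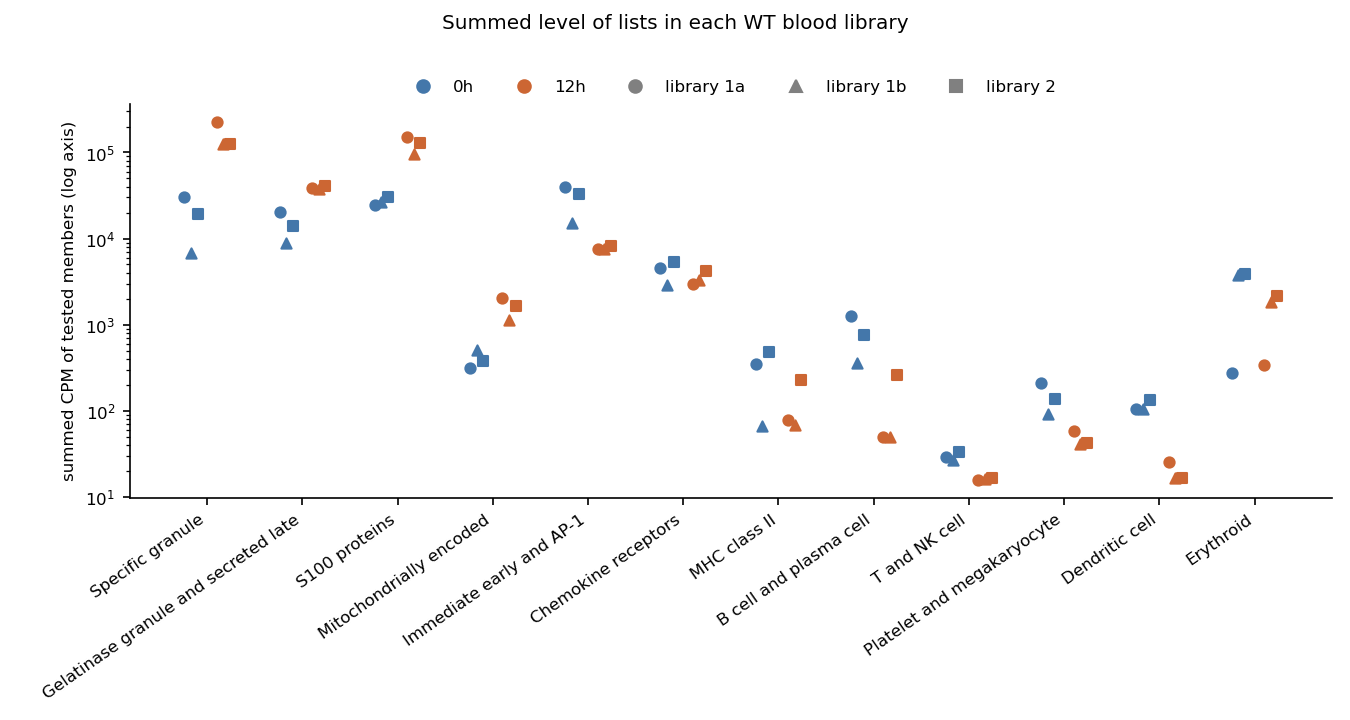
Summed level of 12 lists in each library (log axis, TMM-scaled CPM). Specific granule genes lie at 6820 to 30110 CPM at 0h and 125000 to 225900 CPM at 12h, and platelet markers at 92.4 to 210 CPM and 41.2 to 59.0 CPM.

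By gene class, protein-coding genes held 1782 of the 1975 calls, which is 15.02% of the 11866 tested, with 1068 higher and 714 lower. Among 401 long intergenic noncoding RNAs 47 were called (11.7%), 16 higher and 31 lower. Antisense genes had 28 of 473 called, 5 higher and 23 lower, and unconfirmed transcripts (TEC) 25 of 541, 5 higher and 20 lower. Of 676 processed pseudogenes 29 were called, 16 higher and 13 lower. The strand of counting is not stated, so the reads of antisense genes cannot be told from those of their partners. Immunoglobulin segments all moved one way among the calls, with 7 of 15 variable and 3 of 3 joining segments lower. Ighv1-69 was at 15.3, 8.32 and 15.3 CPM at 0h and 0.0506, 0.392 and 0.305 CPM at 12h (log2 fold change -5.68, SE 0.72, adjusted p = 0.00407), and these segments are a multigene family whose reads may be split.

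Genes carried by 1 file were counted next. A gene was taken as carried where 1 library held at least 75% of the summed CPM of the higher group. Of 6219 genes with a log2 fold change over 1 in size, called or not, 1058 (17.01%) were carried, 24 higher and 1034 lower at 12h. Library 1b of 0h carried 1008 of them, 2 of 0h 22, 1a of 0h 4, 2 of 12h 22, 1a of 12h 2 and 1b of 12h none. At a share of 60% there were 1563 and at 90% there were 408, of which 1b of 0h carried 1362 and 403. With libraries 1a and 2 alone 131 genes met the 75% share. In their carrying library the median level was 6.61 CPM, and 725 of the 1058 had over 5 CPM there.

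Few carried genes were called. They numbered 3 at 75% (0.152% of the calls), 27 at 60% and 1 at 90%. Il10, the anti-inflammatory cytokine, was at 0.338, 0.684 and 0.1255 CPM at 0h and 13.7, 1.23 and 61.2 CPM at 12h, with 80.4% of the 12h level in library 2 (log2 fold change 6.22, SE 1.42, adjusted p = 0.0277). Mmp19, a metalloproteinase, was at 1.13, 1.94 and 1.84 CPM at 0h and 6.78, 6.1 and 47.98 CPM at 12h, with 78.8% in the same library (log2 fold change 3.64, SE 0.88, adjusted p = 0.0335). Sftpc, which codes for surfactant protein C of the alveolus, was at 2.14, 0.5697 and 204.5 CPM at 0h and 0.152, 0 and 0 CPM at 12h, with 98.7% in library 2 of 0h and 3 counts in all at 12h (adjusted p = 0.0448). Other genes of the alveolus had counts in that library as well, with Ager at 40.8 CPM, Sftpa1 at 40.2 CPM, Cldn18 at 6.27 CPM and Sftpd at 5.52 CPM, all named after their values were seen.

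The carried genes with the highest level were not called. Gm10800 (chromosome 2, 98666547 to 98667301) was at 3.98, 21980 and 83.6 CPM at 0h and 21.6, 1723 and 202 CPM at 12h (adjusted p = 0.406). Gm21738, Gm26870, Gm10801, Gm10718, Gm10722 and Gm10717 were at 3292, 2690, 1889, 303, 279 and 225 CPM in library 1b of 0h and at no more than 17.1 CPM in the other 2 libraries of 0h. In 4 of these 6 genes, Gm26870, Gm10718, Gm10722 and Gm10717, the position is within chromosome 9 between 3000282 and 3038313. Lars2, the mitochondrial leucyl-tRNA synthetase, was at 96.8, 470 and 87.7 CPM and then at 235, 688 and 4386 CPM, and Gm23935 was at 1217 CPM in the same library 2 of 12h. Without library 1b of 0h the fitted change of Gm10800 was 3.90 instead of -3.50.

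**Figure D5:**
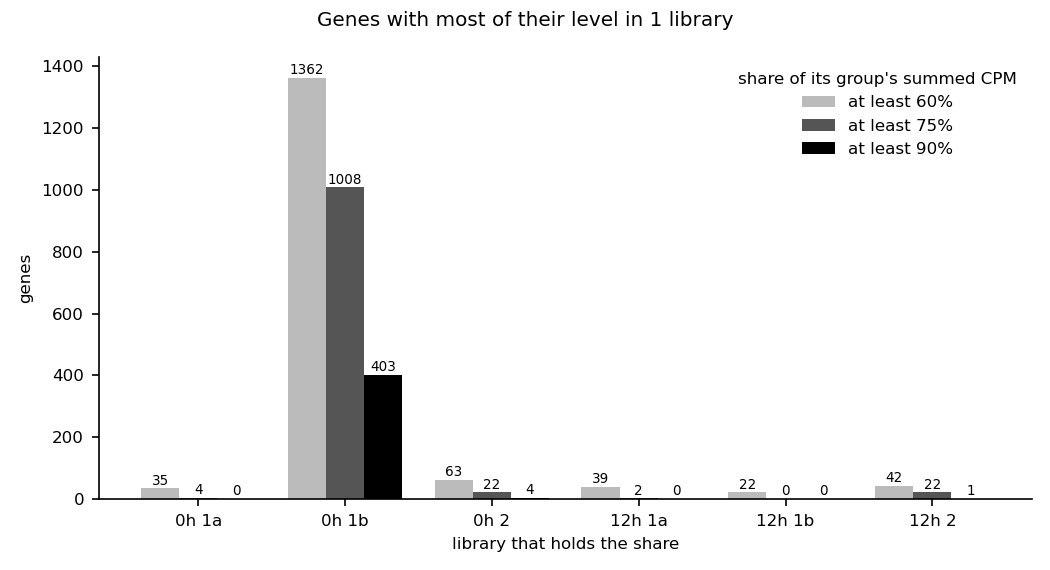
Number of genes with at least 60%, 75% or 90% of the summed CPM of the higher group in 1 library, by library. Library 1b of 0h carries 1362, 1008 and 403 of them, and no other library more than 63.

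The response was then set beside that of blood labelled αD KO and of WT lung, which share no library with it. The αD label was checked first. Itgad was at 109, 58.0 and 49.8 CPM at 0h in blood labelled αD KO and 15.4, 14 and 20.3 CPM in those of 12h, against 2.36 to 3.58 and 0.0535 to 0.441 CPM in WT blood in the same fit. The targeted gene was thus higher in the libraries labelled αD KO than in WT. Counts per gene do not show whether a transcript is intact, so they do not settle the genotype. Both genotype labels are therefore used only as names, also for the WT libraries in which Itgad fell. Whether the labels are exchanged, or whether the targeted allele leaves a transcript, was not tested. Of the 1134 genes that rose in WT blood 1118 (98.6%) had the same sign in blood labelled αD KO, as did 831 (98.8%) of the 841 that fell, against 80.0% of all genes. The median change of the risen genes was 2.00 in WT and 1.55 in blood labelled αD KO, and that of the fallen -2.24 and -1.85. The genes were chosen by their change in WT, so no difference in size is read from these medians.

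The difference of the changes between genotypes was tested as an interaction. No gene of 19792 passed with edgeR (0.00% of genes), while 232 had an unadjusted p under 0.05, and DESeq2 called 1 (0.00505%). It was Flna, filamin A, which crosslinks actin and binds β integrin tails. Flna was at 822, 561 and 1146 CPM at 0h and 3383, 3875 and 3414 CPM at 12h in WT, and at 1486, 842 and 1005 CPM and then 2106, 1814 and 2330 CPM where the label was αD KO. The difference of the log2 fold changes was 1.17 (SE 0.56, edgeR adjusted p = 1, DESeq2 adjusted p = 0.000966).

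In WT lung 1066 (94.0%) of the risen and 790 (93.9%) of the fallen genes had the same sign, against 71.5% of all genes, and their medians were 1.33 and -1.83 (1.89 and -2.36 for blood in the same fit). No gene of 23497 differed between tissues with edgeR (0.00%), although 1290 genes had an unadjusted p under 0.05, whereas DESeq2 called 98 (0.417%), 33 with the higher change in blood and 65 with the lower. Without library 1b of lung at 12h edgeR called 176, of which 78 had the higher change in blood. The changes below are edgeR's fitted values. Genes that DESeq2 called include Timm21, a mitochondrial import protein (3.31 in blood and 0.58 in lung, DESeq2 adjusted p = 1.59e-05), Nr4a2 (-2.66 and 3.64, DESeq2 adjusted p = 0.0157) and Cdkn1a, the p21 cell cycle inhibitor (-1.10 and 5.11, DESeq2 adjusted p = 0.00467). In lung at 12h Cdkn1a was at 478, 11.1 and 1064 CPM, with library 1b far below the others.

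Several members described above were among the 98. Il1b changed by -2.96 in blood and 0.30 in lung (DESeq2 adjusted p = 0.0324), and Ptgs2 by -5.44 and -0.69 (DESeq2 adjusted p = 0.0123). Nlrp3 changed by -2.80 and 1.21 (DESeq2 adjusted p = 0.0289). Of the immediate early genes, Fos changed by -3.37 and -0.98 (DESeq2 adjusted p = 0.000257) and Fosb by -5.55 and -1.87 (DESeq2 adjusted p = 4.79e-05). The change of these genes was thus lower in blood than in lung by this test, and edgeR did not call the difference (adjusted p = 0.876 for each of the 5). mt-Cytb changed by 2.12 and -0.38 (DESeq2 adjusted p = 0.000136). Lipg and Prok2 rose in lung as well, by 7.72 and 6.38.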

How the data were processed

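Neutrophil RNA of 16 samples (24 files) was sequenced after full-length cDNA amplification, and 6 files of 4 samples enter the main comparison. The authors deposited raw counts of uniquely mapped reads in exons per gene. The submitters' processing notes name Trimmomatic 0.36 and STAR 2.5.2b, and the build is GRCm38 (mm10). Whether counting used strand is not stated. Of 49315 genes, 49056 matched GENCODE M21.

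Genes passing filterByExpr were fitted with edgeR 4.0.16 (limma 3.58.1, R 4.3.3; TMM factors, quasi-likelihood test, two-sided) and called where the Benjamini-Hochberg adjusted p was under 0.05 with a log2 fold change over 1 in size. The genotype and tissue comparisons tested the interaction term, each in a fit with the 4 groups concerned. Fold changes, SE and adjusted p are edgeR's unless DESeq2 (1.42.0) is named. Scripts were tested on simulated data. Summaries and plots used Python 3.11.15, pandas 2.3.3, numpy 2.4.6 and matplotlib 3.10.9. Without molecular identifiers, depth (5753476 to 29433699 counts) bounds counting error only.

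Libraries of the same number deviated together across the times (r = 0.457 for 1a, 0.588 for 1b and 0.114 for 2, all over 0.1), which was taken as pairing, although library 2 of 12h correlated better with 1a of 0h (0.244). Library 1b stood apart in depth and in genes with counts in every group, so shared deviation does not show that the numbers pair animals. The sample and file numbers are the only source of the pairing. Alternatives were other normalizations, filters and tests, all 8 groups in 1 fit, summed files, the block and leaving out each library.

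Members and the 53 lists (1019 genes, 940 tested) were chosen with earlier results of these data known. Named were the 12 largest rises and 12 largest falls among called genes without overlap, with at least 5 CPM in the higher and 4 counts in the lower group and no Gm or Rik names, up to 4 called members a list or else the 2 most abundant, preset neutrophil genes, the 10 most abundant carried genes and the largest interactions. Genes outside this rule are given as named after their values were seen, which holds for all sterol list members not in the lipid list. Results of some genes are not reported here, and the plots leave these genes out.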

Additional observations from a re-analysis of the deposited data

How the results depend on the processing

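Against 1975 genes called in WT blood at 12h, DESeq2 called 3131, a fit of all 8 groups 1118, libraries 1a and 2 alone 3201 and no filter on low counts 944. Leaving out single libraries gave 2 to 2804. Other scaling (2180), a minimum of 10 counts (2485), summed files of sample 1 (2756), adjusted p alone (1994) and the replicate block (2692) stayed within 1.5 times, and no called gene changed direction in any of these fits. The share of higher calls was 1149 of 2485 with the minimum of 10 counts, 771 of 1118 with all 8 groups and 1529 of 3201 with libraries 1a and 2, and the median log2 fold change of all genes was -0.83 with all 8 groups, -0.76 with no filter and -0.45 without library 1a of 0h. The fit of all 8 groups also tested more genes (27145). With the block Il1a lost its call and Acat2, Camp, Cd3g, Ifit3, Ltf, Ngp, Prtn3 and Sftpd gained one, and no other gene named with its change at 12h in WT blood changed its call. Between genotypes DESeq2 called 1 gene, and every edgeR fit, the block included, 0. Between tissues DESeq2 called 98, no filter 4, and the fits without 1 library 0 to 176, the 176 without library 1b of lung at 12h. With the block 0 were called there. The causes of these shifts were not tested. Of the list medians that changed sign without 1 library, those farthest from 0 in the full data were of B cells (0.30 without 2 of 0h), interferon-stimulated genes (0.03 without 1a of 0h) and monocytes (0.16 without 1a of 0h). The other medians that did so lay within 0.14 of 0, and with libraries 1a and 2 alone those of glucocorticoid targets (1.103), ribosome biogenesis (0.13), inflammasome (-0.06) and lysosomal genes (-0.20) changed sign. A further 19 of the 53 medians kept their sign there and moved by over 1.5 times, among them those of the immature neutrophil (3.435) and endothelial and epithelial (-0.44) markers. The low depth of library 1b of 0h limits what it can show for genes of few counts.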

Other observations

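Lists of protein synthesis gave few calls in WT blood neutrophils at 12h. The share called was 4% of cytosolic ribosomal proteins and 4.17% of genes of ribosome biogenesis and translation, against 13.5% of all genes. On the list of heat shock chaperones it was 15.8%, close to that of all genes. Of 50 tested cytosolic ribosomal proteins 1 rose and 1 fell (median 0.18), and Rpsa was the one that rose (log2 fold change 1.11, adjusted p = 0.0452). Of 24 genes of ribosome biogenesis and translation 1 rose and none fell (median -0.08), the initiation scaffold Eif4g1 (log2 fold change 1.01, adjusted p = 0.0413). Among 19 heat shock chaperones 1 rose, the chaperonin subunit Cct2 at 17.2, 15.95 and 24.2 CPM at 0h and 78.5, 62.35 and 52.5 CPM at 12h (log2 fold change 1.75, adjusted p = 0.01), and 2 fell (median -0.44), one of them Hsf1, the regulator of this response, at 28.7, 13.45 and 32.8 CPM at 0h and 6.63, 7.67 and 6.402 CPM at 12h (log2 fold change -1.86, adjusted p = 0.0193).

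Lysosomal genes moved both ways, with 5 of 34 higher and 4 lower (median 0.13). Ctsa, the protective cathepsin A, was at 982, 289 and 745 CPM at 0h and 106, 112 and 114 CPM at 12h (log2 fold change -2.60, adjusted p = 0.0147) and Gaa, the acid glucosidase, fell as well (log2 fold change -1.79, adjusted p = 0.0152). Of 38 genes of cell cycle progression 1 rose, Cdk2 (log2 fold change 2.498, adjusted p = 0.0232), and 2 fell, Cdc20 (log2 fold change -2.78, adjusted p = 0.037) and Cenpa (log2 fold change -1.81, adjusted p = 0.0421), with a median of -0.62. Of 22 p53 targets and arrest genes 1 rose and 3 fell (median -0.61), or 2 and 4 with the block. Cyclin D3 (Ccnd3) rose (log2 fold change 1.64, adjusted p = 0.0347) and the cyclin-dependent kinase inhibitor Cdkn1b fell (log2 fold change -1.22, adjusted p = 0.033). Among 30 transcription factors of granulopoiesis 1 rose, or 3 with the block, and 3 fell (median -0.11). The share called on this list, 13.3%, was close to that of all genes (13.5%). It was 18.2% on the p53 list, 7.9% on the cell cycle list and 26.5% on the lysosomal list. Klf5 was at 22.05, 4.79 and 15.01 CPM at 0h and 103, 65.65 and 47.01 CPM at 12h (log2 fold change 2.35, adjusted p = 0.0312), and Cebpd (log2 fold change -1.97, adjusted p = 0.0182) and Mef2c (log2 fold change -1.89, adjusted p = 0.0206) fell.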
